A study of Mus musculus with 36 samples.

Results

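The cytokine genes Il1a, Il1b and Il6 and the protease gene Casp1 were read in mouse colon tumours, colon lesions and transplanted tumours. They were taken by symbol and are 4 of the 988 genes of a targeted RNA panel, each present once in both count tables. Each panel gene is read through a short amplified stretch of its transcript, so levels are compared between samples and not between genes. Colon tumours came from Kit "sash" mice (n = 5) and from wild-type C57BL/6 mice (n = 5) at 32 weeks of age. These mice had been given the colon carcinogen azoxymethane (AOM) at 10 mg/kg per week, in 6 injections that ended 18 weeks before sampling. Colon samples with preneoplastic lesions came from sash (n = 3) and wild-type mice (n = 3) at 14 weeks, after 3 injections of AOM and 3 further weeks. A further experiment used wild-type animals only, also aged 14 weeks. In it cromolyn, a drug used to stabilise mast cells, was given for 3 weeks together with AOM, followed by 3 further weeks (n = 3). A second group had cromolyn for 3 weeks after AOM (n = 3). The remaining group had AOM only, in 3 injections followed by 3 further weeks (n = 3). The colon carcinoma line MC-38 was also grown as tumours in sash (n = 5 analysed) and wild-type hosts (n = 4 analysed), all labelled as given saline. All AOM groups share the carcinogen, so no group here is untreated colon. The sash allele disturbs the regulation of Kit and leaves mice without mast cells, but Kit is also used by other cells, which limits it as a model of mast cell loss alone.

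Interleukin 1 alpha (Il1a) and interleukin 1 beta (Il1b) act on the same receptor and start inflammation through MyD88 and NF-kB. Interleukin 1 beta is made as an inactive precursor, and caspase-1, the product of Casp1, cuts it inside the inflammasome, a complex that also releases interleukin 18. Interleukin 6 (Il6) is induced by interleukin 1 and signals through JAK kinases and STAT3, a route well studied in colon epithelium. An mRNA level says nothing of precursor cutting, which is why Casp1 is given as a transcript only.

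Libraries held 449880 to 1264354 counts in the AOM table and 480136 to 986415 in the MC-38 table. Levels are given as CPM, that is, counts scaled to a common library size with TMM factors, and log2 differences with standard errors (SE) are from edgeR's quasi-likelihood test, with p-values adjusted over all genes tested. Cpa3, a mast cell protease gene, averaged 4.58 CPM in sash and 507 CPM in wild-type MC-38 tumours. It had 0 counts in all 3 sash lesions, and wild-type lesions held only 31 counts in all (1.51 to 22.6 CPM). The panel's 9 mast cell genes summed to 336 to 442 CPM in sash and 580 to 814 CPM in wild-type lesions. Among them Hpgds averaged 199 CPM in sash and 177 CPM in wild-type lesions, and Hdc 9.91 and 9.35 CPM. In AOM tumours Cpa3 averaged 3.37 CPM in sash mice, with counts in 4 of 5 libraries, and 40.8 CPM in wild-type mice. The sums of the panel's 9 mast cell genes overlapped there, at 271 to 609 CPM in sash and 461 to 819 CPM in wild-type AOM tumours, and Hdc, which other myeloid cells also express, averaged 185 CPM in sash and 60.1 CPM in wild-type AOM tumours. Epcam, an epithelial gene, was at 9591 CPM or more in every AOM library and at 3.32 CPM or less in every MC-38 library. Wild-type AOM tumour 4 was the lowest wild-type tumour for the 3 cytokines and the highest for Casp1, with epithelial genes summing to 49823 CPM against 25882 to 32966 CPM in the other 4, so values that rest on it are also given without it.

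The 250 bases before the start of each gene are shown as a description, with no test. They are from RefSeq (GRCm38.p6), matched by symbol, 4 of 4, and written on the strand of the gene, 5′ to 3′. Il1a is on chr2:129309973-129310222 (minus strand), Il1b on chr2:129371140-129371389 (minus strand), Il6 on chr5:30012864-30013113 (plus strand) and Casp1 on chr9:5298267-5298516 (plus strand). Capitals mark matches, on either strand, to the NF-kB consensus, AP-1 (TGANTCA), C/EBP (TTNNGNAA) or a TATA box (TATAAA).
Il1a: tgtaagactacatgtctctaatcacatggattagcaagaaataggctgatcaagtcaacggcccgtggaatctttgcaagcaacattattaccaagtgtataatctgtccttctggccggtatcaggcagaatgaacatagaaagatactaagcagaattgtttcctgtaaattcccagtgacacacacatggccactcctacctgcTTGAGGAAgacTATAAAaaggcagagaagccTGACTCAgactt
Il1b: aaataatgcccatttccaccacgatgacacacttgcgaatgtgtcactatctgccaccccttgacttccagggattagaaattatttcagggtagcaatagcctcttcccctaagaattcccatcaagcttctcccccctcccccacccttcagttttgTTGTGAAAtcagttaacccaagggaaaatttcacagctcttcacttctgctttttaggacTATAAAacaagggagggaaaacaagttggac
Il6: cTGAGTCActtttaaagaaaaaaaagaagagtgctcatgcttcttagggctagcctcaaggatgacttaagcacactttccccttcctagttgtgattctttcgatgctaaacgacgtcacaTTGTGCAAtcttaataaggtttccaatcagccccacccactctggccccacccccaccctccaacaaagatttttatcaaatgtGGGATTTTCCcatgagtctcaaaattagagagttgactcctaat
Casp1: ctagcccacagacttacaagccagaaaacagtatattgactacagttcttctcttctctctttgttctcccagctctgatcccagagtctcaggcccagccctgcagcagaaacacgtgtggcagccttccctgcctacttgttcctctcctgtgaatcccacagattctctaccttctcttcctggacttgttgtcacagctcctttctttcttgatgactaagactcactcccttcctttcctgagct
The Il6 window held 1 match to the NF-kB consensus, 44 to 35 bases before the start, and 7.25% of 32851 promoter windows of this length held at least 1. AP-1 was matched in Il1a and Il6 and in 6.75% of all windows, and C/EBP in all 3 cytokine genes and in 36.8% of all windows. A TATA box stood 32 to 27 bases before the start of Il1a and 31 to 26 bases before that of Il1b, and 12.4% of all windows held these letters. The Casp1 window held none of the 4 motifs, and the share of all windows that held none was not counted. Any part of these motifs in the transcript differences was not tested.

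**Figure D1:**
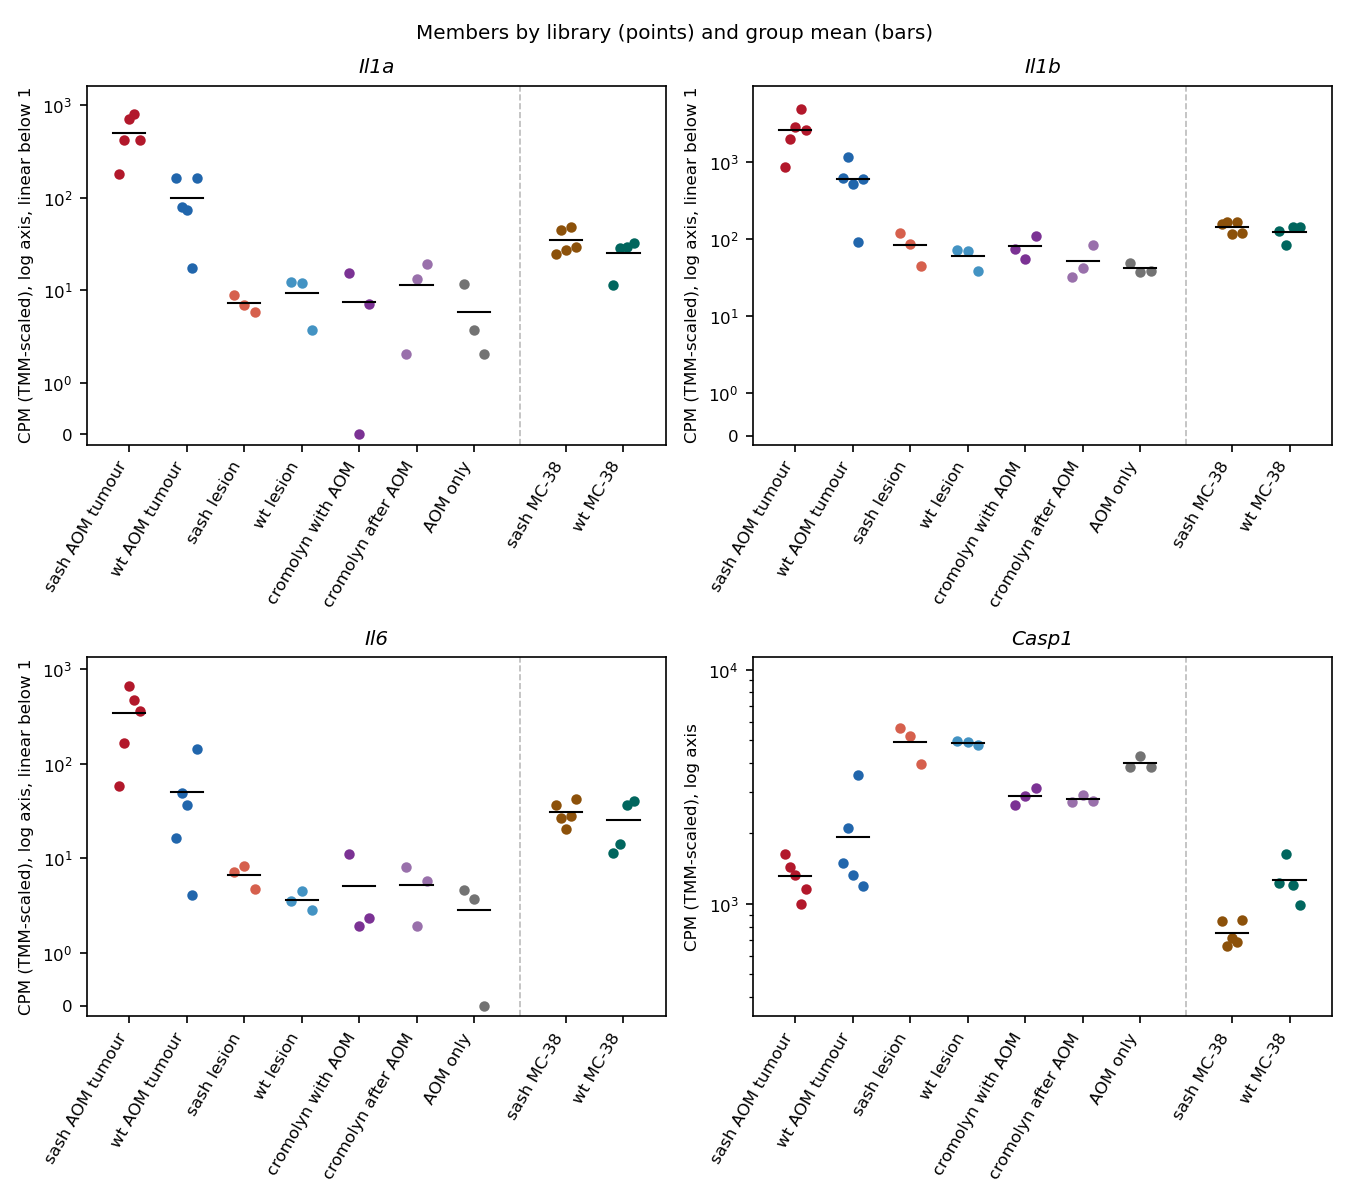
Level of Il1a, Il1b, Il6 and Casp1 in each library (points) and the group mean (bars), in CPM on log axes that are linear below 1 for the 3 cytokines, with AOM groups left and MC-38 groups right of the dashed line, where tables were scaled separately. The cytokines are highest in sash AOM tumours and Casp1 is highest in the lesion groups.

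In AOM tumours of sash mice the 3 cytokine transcripts stood above those of wild-type mice, by 2.11 to 2.78 on the log2 scale, but none passed the test over all genes. Il1a was at 180, 427, 708, 809 and 417 CPM in sash tumours, against 163, 78.9, 73.5, 17.6 and 163 CPM in wild-type tumours. Every sash tumour was above every wild-type tumour, though sash tumour 1 was close to the highest wild-type tumours. The log2 difference was 2.33 (SE 0.56, edgeR adjusted p = 0.0684), and 3.89% of the 797 genes tested had sash tumours wholly above wild-type ones. Il1b was at 859, 1989, 2873, 4869 and 2630 CPM in sash tumours, against 623, 1165, 523, 93.0 and 599 CPM in wild-type tumours. Sash tumour 1 lay below wild-type tumour 2, and the other 4 sash tumours were above all wild-type ones. For Il1b the log2 difference was 2.11 (SE 0.59, edgeR adjusted p = 0.0832).

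Il6 varied most among tumours of the 4 genes, with a coefficient of variation of 69.9% in sash and 109% in wild-type tumours. It was at 58.7, 166, 663, 476 and 363 CPM in sash tumours, against 16.4, 49.3, 36.7, 4.14 and 142 CPM in wild-type tumours. The groups overlapped through sash tumour 1 and wild-type tumour 5. The log2 difference was 2.78 (SE 0.84, edgeR adjusted p = 0.0958). Casp1 was at 1637, 1443, 1334, 998 and 1162 CPM in sash tumours, compared with 1497, 2107, 1330, 3553 and 1197 CPM among wild-type ones. The groups overlapped widely. Its log2 difference was -0.58 (SE 0.28, edgeR adjusted p = 0.281), and -0.25 without wild-type tumour 4 (edgeR adjusted p = 0.567). Without that tumour the log2 difference was 2.06 for Il1a, 1.83 for Il1b and 2.48 for Il6 (edgeR adjusted p = 0.0638, 0.0708 and 0.133).

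Of the 797 genes tested in this comparison 0 (0%) passed in edgeR, while 159 had an unadjusted p under 0.05 and DESeq2 passed 82. Il1a, Il1b and Il6 were among those that passed in DESeq2, with adjusted p-values of 0.00171, 0.00501 and 0.00716. Summed over the panel's 8 neutrophil genes, sash tumours held 782 to 1171 CPM and wild-type tumours 123 to 534 CPM. Of these genes 7 to 8 were counted in each sash tumour and 6 to 8 in each wild-type tumour. The sums include Fpr2 (192 CPM on average in sash and 71.9 CPM in wild-type tumours) and Itgam (223 and 146 CPM), which macrophages also express. The neutrophil receptor Cxcr2 averaged 266 CPM in sash and 83.7 CPM in wild-type tumours, and Mpo held 1 count in all in each genotype. The 10 monocyte and macrophage genes summed to 3137 to 4276 CPM in sash tumours and 1552 to 4021 CPM in wild-type tumours. The largest member was Cd14, at 2099 CPM on average in sash and 1114 CPM in wild-type tumours. Cd68, Msr1, Itgam and Adgre1 were also higher on average in sash tumours. Lower there were Csf1r (341 CPM in sash and 435 CPM in wild-type tumours), Fcgr1, Ccr2 and Cd163. The part of these cell types in the cytokine differences was not tested, and in bulk RNA more cells of a type and more RNA per cell cannot be told apart.

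Of the other 43 interleukin 1 and interleukin 6 pathway genes of the panel, 42 were tested between sash and wild-type tumours and 0 passed in either direction; 32 had a log2 difference above 0, with a median of 0.42 against -0.04 over all genes tested. Among genes induced by interleukin 1 and NF-kB, the neutrophil chemoattractant Cxcl2 averaged 2566 ± 1556 CPM in sash tumours and 332 ± 179 CPM in wild-type tumours (SD, n = 5 each), a log2 difference of 2.92 (SE 0.59, edgeR adjusted p = 0.0684). Nfkbia, the inhibitor that NF-kB itself induces, differed by 0.98 (SE 0.20, edgeR adjusted p = 0.0684).

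Between tumours and lesions of the same genotype, all 3 cytokine transcripts rose and Casp1 fell, in sash and in wild-type mice. Tumours and lesions also differed in age, in the number of AOM injections and in the tissue sampled, so stage cannot be told apart from these. Sample codes also followed different patterns in tumours and lesions, so a difference between experiments cannot be told apart from stage either. Il1a was at 180 to 809 CPM in sash tumours, against 8.95, 6.95 and 5.89 CPM in sash lesions, where each library held 5 counts. No sash lesion came near a sash tumour, and the log2 difference was 6.11 (SE 0.81, edgeR adjusted p = 3.888e-05). Pooled counts gave a ratio of 80.6 (exact 95% interval 48.8 to 144, counting error only). In wild-type mice Il1a was at 17.6 to 163 CPM in tumours, against 12.4, 12.1 and 3.77 CPM in lesions, a log2 difference of 3.43 (SE 0.73, edgeR adjusted p = 0.00276). Of the 848 genes tested, 47.5% passed in sash mice (23.9% higher and 23.6% lower in tumours) and 37% in wild-type mice (19.5% higher and 17.6% lower). Tumours lay wholly above lesions for 27.5% of genes in sash and 16.7% in wild-type mice, and wholly below for 25.1% and 11.7%.

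Il1b was at 859 to 4869 CPM in sash tumours, against 122, 87.5 and 44.8 CPM in sash lesions. The groups lay far apart, with a log2 difference of 4.97 (SE 0.76, edgeR adjusted p = 0.000133). In wild-type mice it was at 93.0 to 1165 CPM in tumours, against 72.5, 71.2 and 38.6 CPM in lesions, and only wild-type tumour 4 came close to the lesions. That log2 difference was 3.29 (SE 0.71, edgeR adjusted p = 0.00276). Il6 had 77 to 862 counts a library in sash tumours, against 4 to 6 in sash lesions, and rose by 5.66 on the log2 scale (SE 1.10, edgeR adjusted p = 0.000802). In wild-type mice it had 4 to 120 counts in tumours, against 2 to 3 in lesions, a log2 difference of 3.72 (SE 1.12, edgeR adjusted p = 0.0188), and wild-type tumour 4 lay within the lesions' range. That call was lost when any of the 3 wild-type lesions was left out, with edgeR adjusted p-values of 0.0511 to 0.0652.

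Casp1 moved the other way. It was at 998 to 1637 CPM in sash tumours, against 5635, 5196 and 3964 CPM in sash lesions. All 5 sash tumours lay below all 3 sash lesions, and Casp1 fell by 1.92 on the log2 scale (SE 0.27, edgeR adjusted p = 7.67e-05). In wild-type mice it was at 1197 to 3553 CPM in tumours, against 4951, 4892 and 4784 CPM in lesions, and fell by 1.38 (SE 0.27, edgeR adjusted p = 0.00149). All 5 wild-type tumours were below the lesions, wild-type tumour 4 being the nearest. Without that tumour the wild-type differences between tumours and lesions were 3.73 for Il1a, 3.60 for Il1b, 4.05 for Il6 and -1.68 for Casp1, each still past the threshold in edgeR. Car4, a gene of mature surface colonocytes, was also lower, at 95.5 to 1431 CPM in sash tumours and 33670 to 62115 CPM in sash lesions. In wild-type mice Car4 was at 230 to 14905 CPM in tumours and 25353 to 32516 CPM in lesions. Epcam was at 23558 to 29197 CPM in sash tumours and 22060 to 28961 CPM in sash lesions. Neutrophil genes summed to 782 to 1171 CPM in sash tumours and 39.4 to 107 CPM in sash lesions, and to 123 to 534 CPM in wild-type tumours and 50.0 to 67.2 CPM in wild-type lesions. The part of these cells in the 4 genes was not tested.

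**Figure D2:**
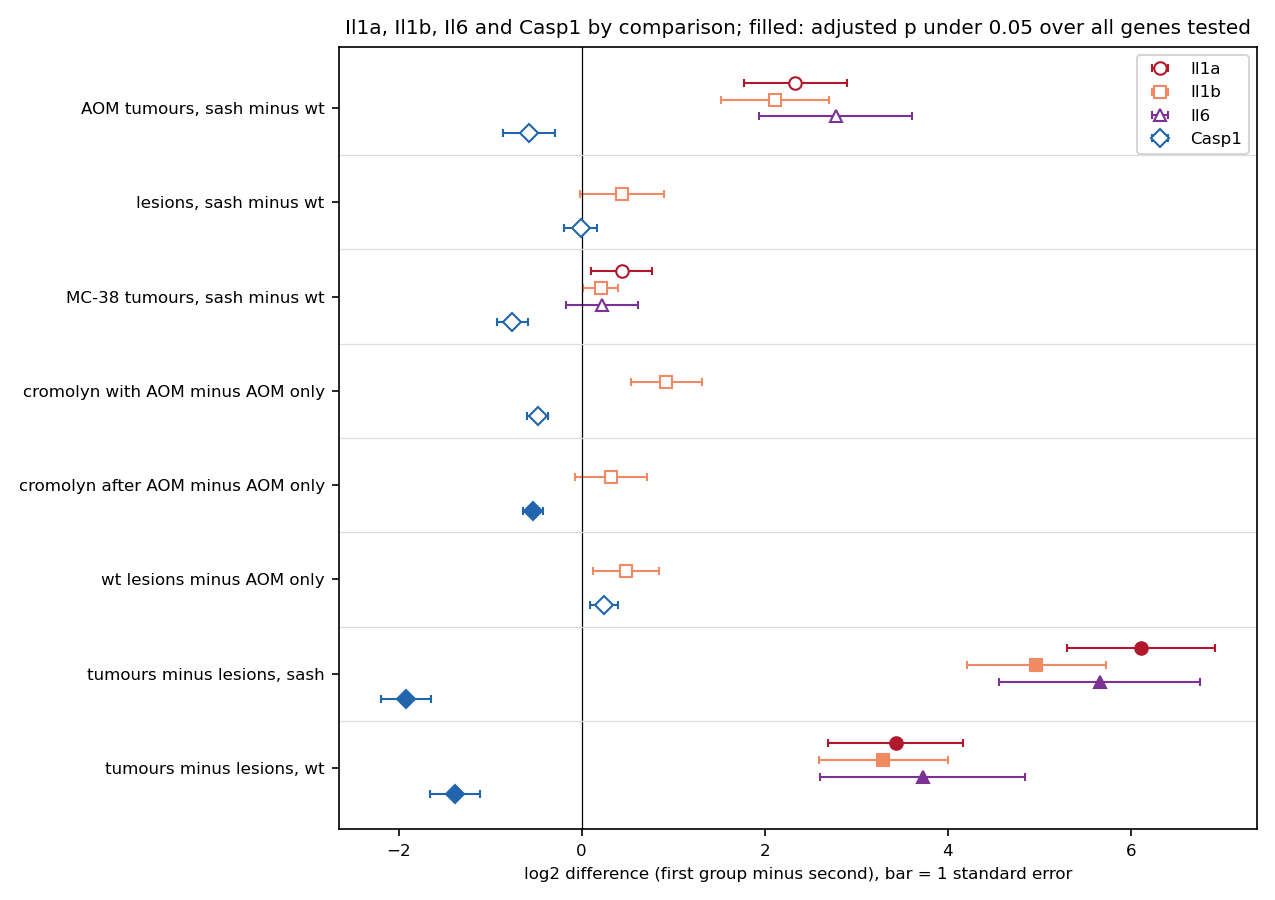
Fitted log2 difference of each gene (horizontal axis, bars 1 SE) in 8 comparisons, first group minus second, with filled symbols where the adjusted p was under 0.05. In both tumour and lesion comparisons the 3 cytokines lie right of 0, between 3.29 and 6.11, and Casp1 lies left of it, at -1.92 in sash and -1.38 in wild-type mice.

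In sash mice 23.9% of the 848 genes tested between tumours and lesions were called higher and 23.6% lower. In wild-type mice these shares were 19.5% and 17.6%. Of the 43 other pathway genes tested there, 17 rose and 6 fell in sash mice, and 18 rose and 4 fell in wild-type mice. These comparisons share no library, and 17 genes passed in both, which is 73.9% of the sash calls and 77.3% of the wild-type calls. Of the 17 genes, 15 were higher in both and 2, Sigirr and Socs1, were lower in both. Over all genes tested, 54.1% of the sash calls and 69.4% of the wild-type calls were shared. Genes induced by interleukin 1 and NF-kB had 13 of 16 higher and 0 lower in sash mice, and 11 of 16 higher and 0 lower in wild-type mice. Il33, an alarmin of the interleukin 1 family, averaged 1101 ± 377 CPM in sash tumours and 43.9 ± 20.9 CPM in sash lesions (SD, n = 5 and 3). Cxcl2 averaged 2566 ± 1556 CPM in sash tumours and 20.9 ± 2.32 CPM in sash lesions. The neutrophil chemoattractants Cxcl3 and Cxcl5 rose by 7.85 and 5.12 on the log2 scale in sash mice and by 5.89 and 6.60 in wild-type mice (edgeR adjusted p = 0.000499 or less). Cxcl3 held only 7 counts in all in sash lesions and 6 in wild-type lesions, so the size of its rise rests on very low counts. Selp, an endothelial adhesion receptor, rose by 3.56 in sash and 2.58 in wild-type mice (edgeR adjusted p = 4.25253e-05 and 0.000853). Clcf1, a cytokine of the interleukin 6 family, rose by 3.18 in sash and 1.21 in wild-type mice (edgeR adjusted p = 0.000112 and 0.0319). The decoy receptor Il1r2, which binds interleukin 1 without signalling, rose by 3.69 on the log2 scale in sash mice (SE 0.55, edgeR adjusted p = 0.000112) and by 1.75 in wild-type mice (SE 0.49, edgeR adjusted p = 0.0134).

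Among the 5 inflammasome genes tested besides Casp1, 0 were higher in tumours, 2 were lower in sash mice and 1 in wild-type mice, in comparisons where 23.6% and 17.6% of all genes were called lower. Sash tumours had less Pycard, the adaptor that recruits caspase-1 (log2 difference -1.47, SE 0.35, edgeR adjusted p = 0.00326), and less Naip1, a sensor of the inflammasome (-1.63, SE 0.40, edgeR adjusted p = 0.00409). Il18, whose product caspase-1 also cuts, had a log2 difference of -1.84 between sash tumours and sash lesions (SE 0.34, edgeR adjusted p = 0.000538). In wild-type mice Il18 averaged 3400 CPM in tumours and 3619 CPM in lesions and did not pass (-0.14, SE 0.34, edgeR adjusted p = 0.787), while it averaged 2359 CPM in sash tumours and 8415 CPM in sash lesions. Pycard in wild-type mice missed the threshold (-0.90, SE 0.35, edgeR adjusted p = 0.0545), and Casp8, a related protease, was lower (-0.42, SE 0.14, edgeR adjusted p = 0.0264). Of 8 signalling genes downstream of interleukin 1, 1 rose and 1 fell in sash mice, and 3 rose and 1 fell in wild-type mice. Rela, an NF-kB subunit, was higher by 0.56 in sash and 0.85 in wild-type tumours (edgeR adjusted p = 0.00995 and 0.00100).

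**Figure D3:**
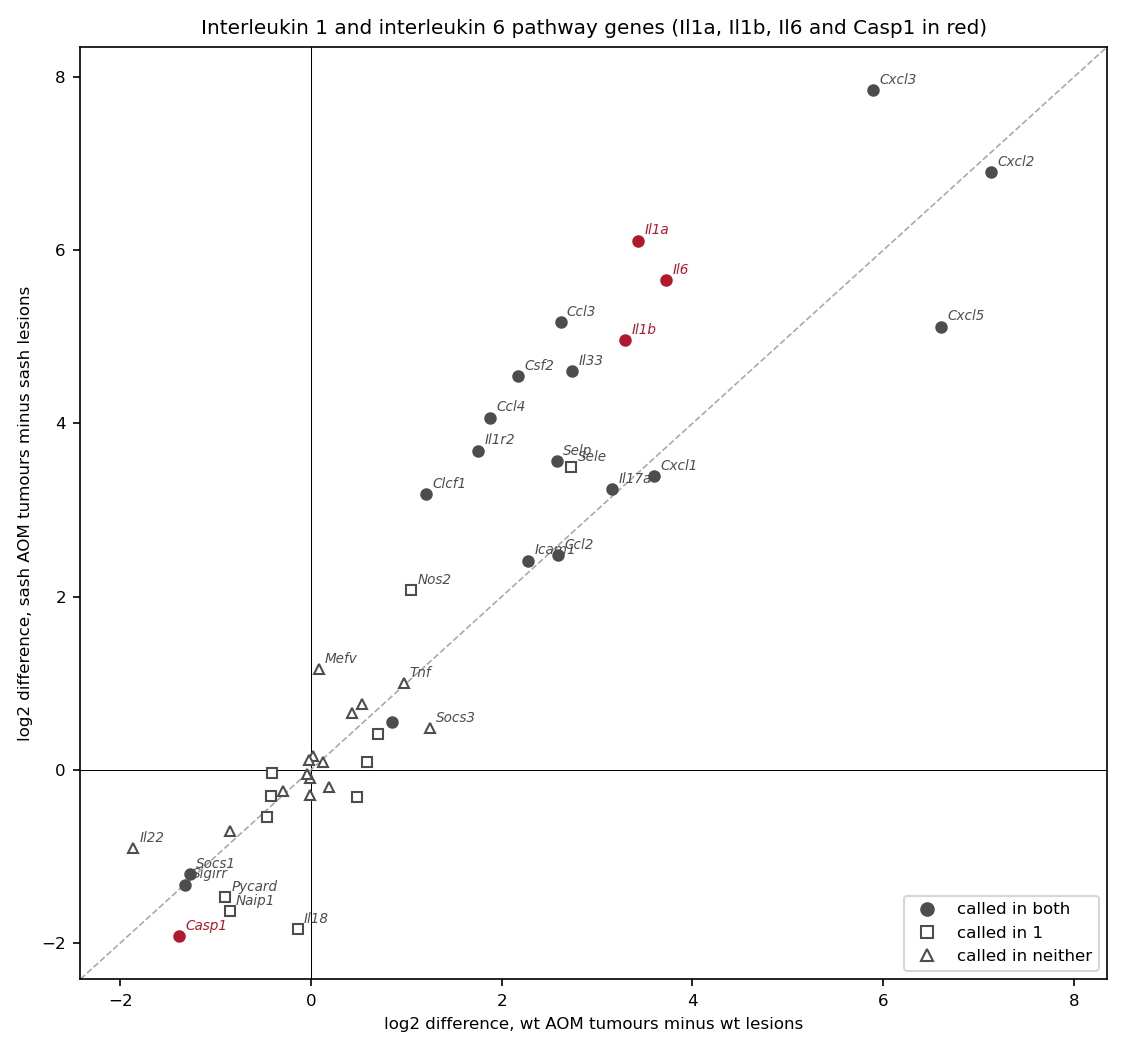
Log2 difference between tumours and lesions in wild-type mice (horizontal) and in sash mice (vertical) for the 4 genes (red) and 43 other pathway genes, with symbols for calls in both, in 1 or in neither comparison. Il1a, Il1b and Il6 lie above the dashed line of equal change. Casp1 lies with Pycard, Naip1 and Il18 at the lower end of the sash axis. On the wild-type axis Pycard, Naip1 and Il18 were not called, and Il18 changed little.

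Whether the sash difference itself changed with stage was tested in 1 fit of the 4 groups. The difference of differences was 2.68 for Il1a (SE 1.04, edgeR adjusted p = 0.272), 1.67 for Il1b (SE 0.89, edgeR adjusted p = 0.373), 1.94 for Il6 (SE 1.62, edgeR adjusted p = 0.588) and -0.53 for Casp1 (SE 0.40, edgeR adjusted p = 0.528). None of the 848 genes tested passed in edgeR (0%), while 128 had an unadjusted p under 0.05 and DESeq2 passed 20.

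In preneoplastic lesions the 4 genes did not differ detectably between genotypes. Il1a had 5, 5 and 5 counts in sash lesions and 7, 8 and 4 in wild-type lesions, and Il6 had 4, 6 and 4 counts in sash lesions and 2, 3 and 3 in wild-type lesions. Both were too low to test. The 3 sash lesions were above the wild-type ones for Il6, as they were for 10.1% of the genes tested, and the pooled ratio was 0.865 for Il1a (exact 95% interval 0.409 to 1.80) and 1.92 for Il6 (0.751 to 5.28). Il1b was at 122, 87.5 and 44.8 CPM in sash lesions, against 72.5, 71.2 and 38.6 CPM in wild-type lesions, a log2 difference of 0.44 (SE 0.46, 95% interval -0.61 to 1.49, edgeR adjusted p = 0.698). The groups overlapped, while within same-numbered pairs the sash lesion was higher in all 3, and the fit with pairs gave 0.40 (SE 0.33, edgeR adjusted p = 0.493). Casp1 was at 5635, 5196 and 3964 CPM in sash lesions, against 4951, 4892 and 4784 CPM in wild-type lesions, a log2 difference of -0.01 (SE 0.18, 95% interval -0.43 to 0.40, edgeR adjusted p = 0.979). In this comparison 22 of 775 genes passed (2.84%), and 84 with the replicate number as a block, neither Il1b nor Casp1 being called with it (Casp1 adjusted p = 0.932). Of 36 other pathway genes tested 3 rose: Cxcl2 by 3.14 (SE 0.52, edgeR adjusted p = 0.0157), Cxcl5 by 2.60 (SE 0.52, edgeR adjusted p = 0.0401) and Nfkbia by 0.85 (SE 0.18, edgeR adjusted p = 0.0476). Cxcl2 held 45 counts in all in sash lesions and 5 in wild-type lesions.

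Casp1 was lower with cromolyn given after AOM than with AOM only, and its difference with cromolyn given together with AOM missed the threshold in edgeR but not in DESeq2. Casp1 was at 2716, 2924 and 2761 CPM with cromolyn after AOM, against 3848, 4283 and 3835 CPM with AOM only, and every cromolyn library was below every AOM-only library. It fell by 0.53 on the log2 scale (SE 0.11, edgeR adjusted p = 0.0333), in a comparison where 4.82% of 768 genes passed, 2.47% were called lower and 15.5% lay wholly below. Of the calls there 48.6% were higher, and 71.4% with library totals. The call was lost when any of the 6 libraries was left out (edgeR adjusted p = 0.0552 to 0.125) and under 3 other settings. With cromolyn given together with AOM, Casp1 was at 2651, 2881 and 3118 CPM, again below all 3 AOM-only libraries, with a log2 difference of -0.48 (SE 0.11, edgeR adjusted p = 0.0651). DESeq2 passed it (adjusted p = 0.00400). There 0.26% of genes passed and 10.7% lay wholly below.

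Il1b was at 74.8, 55.5 and 111 CPM with cromolyn together with AOM, against 49.1, 37.6 and 38.5 CPM with AOM only. The cromolyn libraries were all higher, as were those of 13.8% of the genes tested, and the log2 difference was 0.93 (SE 0.39, edgeR adjusted p = 0.259). With cromolyn after AOM it was at 32.6, 41.9 and 83.8 CPM, which spans the AOM-only values, a log2 difference of 0.32 (SE 0.40, edgeR adjusted p = 0.666). Il1a had 10 counts in all with cromolyn together with AOM, 18 with cromolyn after AOM and 8 with AOM only, and Il6 had 7, 8 and 4, too few to test. Pooled ratios to AOM only for Il1a were 1.34 with cromolyn together (exact 95% interval 0.476 to 3.90) and 2.26 with cromolyn after (0.934 to 6.00). Between the timings, together minus after, Il1b differed by 0.61 (SE 0.38, edgeR adjusted p = 0.660) and Casp1 by 0.05 (SE 0.11, 95% interval -0.19 to 0.30, edgeR adjusted p = 0.957). Of the 768 genes 0 (0%) passed between timings in edgeR, 64 had an unadjusted p under 0.05 and DESeq2 passed 6. Both cromolyn comparisons share the AOM-only libraries. Epithelial genes summed to 21995 to 50270 CPM with cromolyn together with AOM, 20991 to 38035 CPM with cromolyn after it and 47531 to 62294 CPM with AOM only, and their part in the Casp1 difference was not tested.

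Of 35 other pathway genes tested with cromolyn after AOM, 2 rose: Nos2, the inducible nitric oxide synthase, by 2.18 (SE 0.48, edgeR adjusted p = 0.0339) and Socs1, a brake on JAK signalling, by 1.53 (SE 0.37, edgeR adjusted p = 0.0411). Over all genes 4.82% passed in that comparison. With cromolyn together with AOM 0 of 35 passed, and there Nos2 differed by 1.71 and Socs1 by 1.43 (edgeR adjusted p = 0.116 and 0.0800). For both genes all 3 cromolyn libraries were above AOM only, as they were for 13.8% of the 768 genes tested.

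Wild-type lesions and the AOM-only group carry the same labelled treatment and age and were compared as a check on differences between the experiments. Casp1 was at 4951, 4892 and 4784 CPM in wild-type lesions, against 3848, 4283 and 3835 CPM with AOM only, all higher, with a log2 difference of 0.24 (SE 0.16, edgeR adjusted p = 0.306). Groups lay wholly apart in this direction for 21.1% of genes. Il1b differed by 0.48 (SE 0.36, edgeR adjusted p = 0.376). Of 762 genes 15.6% passed, so groups that share a label differed in many genes. Among the pathway genes called, Il18 was lower in wild-type lesions (log2 difference -0.99, edgeR adjusted p = 0.0266).

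In MC-38 tumours Casp1 stood lower in sash mice and the 3 cytokines differed by less than their spread. Casp1 was at 846, 664, 717, 690 and 856 CPM in sash tumours, against 1223, 1629, 1199 and 990 CPM in wild-type tumours. All 5 sash tumours were below all wild-type tumours, as were those of 4.06% of the 714 genes tested. The log2 difference was -0.76 (SE 0.17), and its edgeR adjusted p of 0.0508 missed the threshold, which 1.26% of genes passed. DESeq2 passed it (adjusted p = 0.00163). Il1a averaged 34.9 ± 11.1 CPM in sash tumours and 25.6 ± 9.65 CPM in wild-type tumours (SD, n = 5 and 4), a log2 difference of 0.43 (95% interval -0.30 to 1.17, edgeR adjusted p = 0.463). Il1b averaged 145 ± 25.5 CPM in sash tumours and 125 ± 27.8 CPM in wild-type tumours, a difference of 0.21 (95% interval -0.22 to 0.63, edgeR adjusted p = 0.557). Il6 was at 36.9, 26.6, 20.4, 27.7 and 42.0 CPM in sash tumours, against 11.4, 14.2, 36.9 and 40.3 CPM in wild-type tumours, a difference of 0.22 (95% interval -0.64 to 1.08, edgeR adjusted p = 0.763). The 8 neutrophil genes summed to 810 to 1505 CPM in sash and 831 to 1890 CPM in wild-type tumours, mostly through Fpr2 (844 CPM in sash and 959 CPM in wild-type tumours on average) and Itgam (280 and 288 CPM), which macrophages also express. The neutrophil receptor Cxcr2 averaged 2.43 CPM in sash and 1.38 CPM in wild-type tumours, and Mpo was at 0 in all 9. Of 38 other pathway genes tested 0 passed.

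Ratios of counts within a library do not depend on scaling. The log2 ratio of Casp1 to Il1b averaged -0.82 ± 1.18 in sash AOM tumours and 1.94 ± 1.86 in wild-type AOM tumours (SD, n = 5 each), with 4 of 5 sash tumours below all wild-type ones. The difference was -2.76 (exact two-sided permutation p = 0.0159, adjusted over 3 ratios 0.0476), and -1.94 without wild-type tumour 4. The adjusted p was 0.0952 (exact permutation) when that tumour, wild-type tumour 1 or 3 or any of sash tumours 2 to 5 was left out, so the call rests on the full set. In MC-38 tumours the same ratio averaged 2.38 ± 0.37 in sash and 3.34 ± 0.65 in wild-type mice (exact permutation p = 0.0317, adjusted 0.0952). The Il1a to Il1b ratio averaged -2.35 ± 0.27 in sash and -2.57 ± 0.82 in wild-type AOM tumours (exact permutation p = 0.651), and that of Il6 to Il1b -3.15 ± 0.69 in sash and -3.99 ± 1.18 in wild-type tumours (exact permutation p = 0.214). With 3 against 3 libraries the smallest exact p is 0.1, so ratios in the 14-week groups could not pass. The Casp1 to Il1b ratio was lower in all 3 libraries with cromolyn together with AOM than with AOM only (5.20 ± 0.44 and 6.55 ± 0.27, exact permutation p = 0.1).

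**Figure D4:**
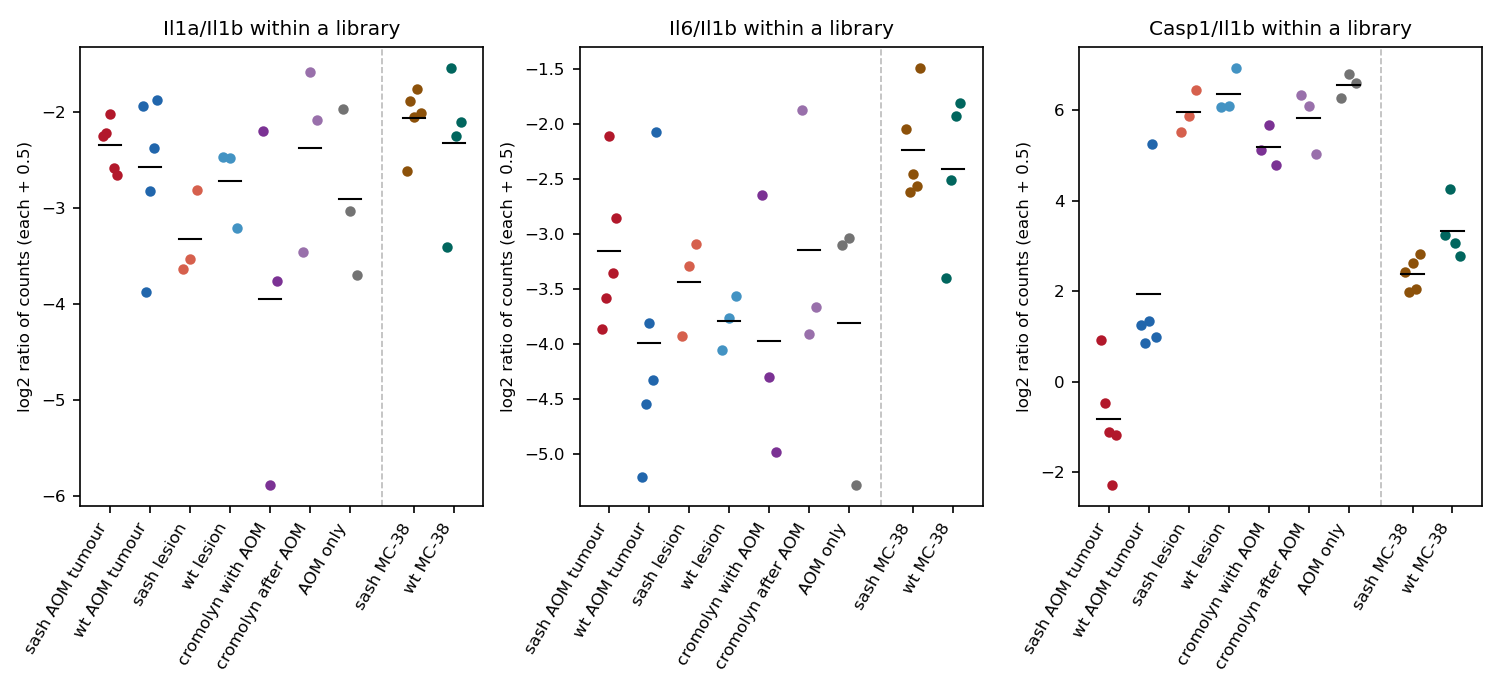
Log2 ratio of counts within each library (points, each count plus 0.5) with group means (bars) for Il1a to Il1b, Il6 to Il1b and Casp1 to Il1b, AOM groups left and MC-38 groups right of the dashed line. The Casp1 to Il1b ratio is lowest in sash AOM tumours, at -0.82 on average, and wild-type AOM tumour 4 lies far above the other wild-type tumours at 5.25.

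Over the 25 AOM libraries, which pool stages and genotypes, Il1b was correlated with Il1a at r = 0.96 and with Il6 at 0.94 on the log2 CPM scale, and Il1a with Il6 at 0.93. Casp1 was correlated negatively with all 3, at -0.86, -0.86 and -0.85 for Il1a, Il1b and Il6. The genes most like Il1a were Tnfrsf9 (0.96), Il1b and Cxcl3 (0.95), those most like Il1b were Cxcl3 (0.97), Cxcl2 (0.96) and Il1a, and those most like Il6 were Il1b, Il1a and Cxcl2 (0.93). Most like Casp1 were Tsc22d3 (0.94), H2-Q2 (0.94) and Abcg2 (0.93). These values are descriptions over samples that fall into separate stages; with group means removed, the 3 cytokine pairs stood at 0.63 to 0.75, and Casp1 at -0.55 with Il1a, -0.53 with Il1b and -0.64 with Il6. Some of the named likenesses were lower then, at 0.58 for Il1a with Cxcl3 and 0.67 for Casp1 with Abcg2.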

How the data were processed

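Per the labels' protocols, RNA was read with a QIAseq targeted Mouse Immuno-Oncology panel. The authors deposited whole-number counts per gene without normalization, in 1 table of 25 AOM libraries and 1 of 9 MC-38 libraries. The submitters' processing notes name the build mm9 and DESeq2, and neither the aligner nor the counter nor any use of molecular tags is stated there, so intervals cover counting error only. Of 36 samples 34 were analysed, and MC-38 wild-type replicate 2 and sash replicate 3 were not analysed here. Labels do not state that samples are separate mice, so p-values measure spread between samples, which may be technical. Replicates differed beyond sampling noise (chi-square per degree of freedom 5.85 to 194), so each was counted once. The 5 control entries, at 0 counts, were left out.

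Counts were tested with edgeR 4.0.16 (R 4.3.3): TMM, filterByExpr (minimum count 10, minimum total 15), robust quasi-likelihood fits, Benjamini-Hochberg adjustment, threshold 0.05. Each pair of groups was fitted alone, the 3 cromolyn groups together, and tumours and lesions together. DESeq2 1.42.0 and other settings were alternatives. Script steps were tested on simulated data. Same-numbered lesion replicates had correlated deviations (0.39, 0.16 and 0.52), so a fit with the replicate number as a block is also given for lesions. The main fits, lesions included, were unpaired, and the labels do not say that numbers mark pairs. Where both groups averaged fewer than 10 counts, a gene is given as counts. Named genes were the 4, called pathway genes of smallest p (up to 8 a comparison), genes needed for small counts and the 3 genes most like each by Pearson correlation; Cxcl2 and Nfkbia in AOM tumours and Il1r2, Pycard, Naip1, Il18, Casp8, Rela, Clcf1, Nos2, Socs1 and cell type markers where they fell outside it were added after their values were seen. Members and lists were chosen with earlier results of these data known.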

Additional observations from a re-analysis of the deposited data

Results flagged for a closer look

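The log2 ratio of Casp1 to Il1b in wild-type AOM tumour 4 was 5.25, far from the other 4 wild-type tumours, which lay between 0.85 and 1.35. Of 28 sets of values examined for a sample far from the others, 1 stood out in this way, and chance gives about 1 in 20.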

How the results depend on the processing

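Of 482 alternative values for the 4 genes, 444 kept direction and side of the threshold, 12 lost a call, 12 gained one and 14 changed sign; the cause was not tested. In AOM tumours, sash against wild type, counts of called genes were 82 with DESeq2, 2 with library totals, 88 with all 25 libraries in 1 fit, 6 without wild-type tumours 2 and 4 (left out together for their B cell and surface epithelium levels, after seeing the data, with Casp1 then at -0.02) and 0 to 17 on leaving out a library, against 0; Il1a, Il1b and Il6 passed in the fit of all libraries (adjusted p = 0.00751, 0.00729 and 0.00841). In lesions counts were 70 with DESeq2, 36 with no filter, 84 with the replicate block and 0 to 68 leaving out a library, against 22; Casp1 changed sign to 0.00767 with DESeq2, 0.0230 with library totals, 0.000328 with no filter and 0.0178 in the fit of all libraries, and ranged from -0.0856 to 0.0948 leaving out a library. With cromolyn together with AOM counts were 39 with DESeq2, 18 with library totals, 0 with housekeeping scaling, 0 in the fit of all libraries, 7 with the replicate block and 0 to 15 leaving out a library, against 2. With cromolyn after AOM they were 1 with housekeeping scaling, 0 in the fit of all libraries, 21 with the replicate block and 1 to 8 leaving out a library, against 37; Casp1 there had adjusted p-values of 0.0748 with library totals, 0.0798 with housekeeping scaling and 0.611 in the fit of all libraries, and Il1b ranged from -0.143 to 0.567 leaving out a library. Between timings counts were 6 with DESeq2, 3 with library totals and 0 to 1 leaving out a library, against 0, and Casp1 was -0.0104 with library totals. In MC-38 tumours counts were 50 with DESeq2, 49 with housekeeping scaling, 3 with the replicate block and 3 to 17 leaving out a library, against 9; with housekeeping scaling, which rests on 2 genes, Il1b was -0.0202 and Il6 -0.0578, with the replicate block Il6 was -0.107, and leaving out a library Il6 ranged from -0.00260 to 0.499. Tumours against lesions gave 172 calls with housekeeping scaling in wild-type mice, against 314, and 183 to 367 there and 298 to 389 in sash mice leaving out a library. The difference of differences gave 20 with DESeq2, 4 in the fit of all libraries, 8 without wild-type tumours 2 and 4 and 0 to 10 leaving out a library, against 0. Wild-type lesions against AOM only gave 199 with housekeeping scaling and 11 to 268 leaving out a library, against 119, and Casp1 was -0.189 with that scaling, which moved the median of all genes by -0.43. For log2 ratios, leaving out a library gave Casp1 to Il1b -3.20 to -1.94, Il6 to Il1b 0.54 to 1.32 and Il1a to Il1b -0.0960 to 0.40 in AOM tumours; Il6 to Il1b -0.91 to 0.34 with cromolyn together with AOM and -0.0799 to 1.04 with cromolyn after it; and Il1a to Il1b -0.0999 to 0.52 and Il6 to Il1b -0.15 to 0.38 in MC-38 tumours. With library totals the share of calls that were higher was 71.2% in wild-type and 62.9% in sash tumours against lesions, compared with 52.5% and 50.4%, and medians of all genes moved by 0.22 and 0.18. It was then 94.4% with cromolyn together with AOM, compared with 50%, 71.4% with cromolyn after AOM, compared with 48.6%, and 66.7% in MC-38 tumours, compared with 55.6%. Under housekeeping scaling it was 100% of 1 call with cromolyn after AOM, 4.08% in MC-38 tumours and 17.1% in wild-type lesions against AOM only, compared with 55.5%. Same-numbered replicates of sash and wild-type MC-38 tumours also had correlated deviations in part, at 0.64, 0.26 and 0.005 for numbers 5, 1 and 4. Numbers outside the lesions were not read as pairs, and the block changed no other call of the 4 genes. Il1a and Il6 held 10 counts or fewer in each library of the 14-week groups, which limits what can be seen there.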

Other observations

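Over the 9 MC-38 libraries the genes most like Il1a were Tmc6 (r = 0.98), Ptgis (0.95) and Mmp12 (0.92), and most like Il1b were Pde4b (0.97), Il12b (0.95) and Cd70 (0.94). Most like Il6 were Thada (0.84), Ppfibp2 (0.80) and Steap4 (0.80), and most like Casp1 were B2m (0.96), Tsc22d3 (0.95), which was also named over the AOM libraries, and Tmem184c (0.92). Il1a and Il1b were correlated at 0.36 there and Il1b and Il6 at 0.51. These are descriptions over few libraries of separate hosts, with no test.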
